A study of Homo sapiens with 6 samples.

Results

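Antiviral restriction factors are host proteins that block a step in the life cycle of a virus inside the infected cell. The genes examined here are the dynamin-like GTPase genes MX1 and MX2, the interferon-induced transmembrane genes IFITM1, IFITM2 and IFITM3, and RSAD2, BST2, SAMHD1, XAF1 and IFI6. These 10 genes were taken by symbol from the 61541 genes of each count table, and all 10 symbols were found there. They were measured in RCC4, an established line of human clear cell renal carcinoma that the labels describe as epithelial. One group was 3 untreated cultures. The other was 3 cultures given interferon gamma (IFNγ) at 1000 U/mL plus tumour necrosis factor (TNF) at 25 ng/mL for 24 h. Every replicate drew on 3 flasks of the same line, and both groups were grown in the same serum-supplemented medium. No group received a single cytokine, so the parts played by IFNγ and TNF cannot be told apart. In a bulk culture, a change in the share of expressing cells and a change in RNA per cell cannot be told apart either.

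Interferons bind receptors whose JAK kinases phosphorylate STAT proteins. Phosphorylated STAT dimers formed after IFNγ bind GAS elements (gamma-activated sites), whereas complexes that hold STAT2 and IRF9 bind interferon-stimulated response elements (ISRE). IRF1, itself induced by IFNγ, also binds ISRE-like sequences. Many restriction factor genes carry such elements, and TNF acts mainly through NF-kappaB. Epithelial cells, which are entry sites for many viruses, generally induce restriction factors in response to interferon.

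Short promoter stretches are shown first, because the members were measured together under a stimulus whose transcription factors have known core motifs. RefSeq promoter windows (GRCh38.p14) spanning 250 bases before to 50 after an annotated start were found for 8 of the 10 genes, with 12 windows in all. MX2 and IFITM2 had none in the table used. The ISRE core, GAAA followed by any 2 bases and GAAA again, was searched on both strands, with overlapping matches counted separately. It occurred in 7 of the 12 windows and in 6 of the 8 genes, whereas 3.57% of all 35116 windows of this length held it. Capitals mark the matches, and each stretch is written 5′ to 3′ on the gene's own strand.
BST2, minus strand, chr19:17405720-17405785: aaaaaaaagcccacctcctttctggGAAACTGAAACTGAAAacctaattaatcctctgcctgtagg
IFITM3, minus strand, chr11:320861-320937: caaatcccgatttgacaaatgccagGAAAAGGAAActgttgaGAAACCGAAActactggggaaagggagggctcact
IFITM1, plus strand, chr11:313975-314043: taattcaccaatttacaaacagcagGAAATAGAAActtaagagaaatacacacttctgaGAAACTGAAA
IFI6, minus strand, chr1:27672251-27672373: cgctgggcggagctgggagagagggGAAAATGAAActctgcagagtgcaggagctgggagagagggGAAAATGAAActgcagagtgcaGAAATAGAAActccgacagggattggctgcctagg
RSAD2, plus strand, chr2:6877607-6877666: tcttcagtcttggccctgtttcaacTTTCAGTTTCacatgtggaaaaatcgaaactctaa
MX1, plus strand, chr21:41420544-41420578: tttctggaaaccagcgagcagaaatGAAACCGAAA

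The BST2 stretch holds 2 overlapping matches and the IFI6 stretch 3, of which the first 2 lie in a repeated block. In RSAD2 the match is on the opposite strand, in the second of its 2 windows. The MX1 match lies 12 to 21 bases after the first of 3 annotated starts, and another MX1 window holds 1 more match. These letters were not found in the windows of SAMHD1 and XAF1. The GAS core TTCNNNGAA was present in windows of 3 genes, MX1, BST2 and IFITM1, against 7.66% of all windows. An NF-kappaB consensus motif was present in windows of 4 genes, MX1, BST2, XAF1 and IFITM3, against 11.3% of all windows. Both percentages are shares of windows, not of genes, and a gene with several windows, such as MX1 with 3, has more chances of a match. A match describes the letters of a window and is neither a binding site nor a cause of a change in RNA.

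RNA was read as native poly(A) molecules by nanopore direct RNA sequencing, which starts at the 3′ end of each molecule. Libraries held between 3626000 and 4406296 counts assigned to genes. Levels are given as CPM, a gene's counts per 1000000 counts of its library, after scaling by trimmed mean of M values (TMM), and 3 counts corresponded to between 0.674 and 0.863 CPM. On the second principal component of the libraries, which held 27.1% of the variance, untreated replicates 1, 2 and 3 scored 35.3, 7.30 and -49.5. Treated replicates 1, 2 and 3 scored 34.0, -17.9 and -9.22, so replicate 1 of both groups lay close together there. All 7 renal carcinoma markers examined had counts, among them PAX8, CA9 and EPCAM, with VIM higher (log2 fold change 0.66) and PAX8 lower (-0.79) in treated cells, while the leukocyte markers PTPRC, CD3E, LYZ and CD68 and the endothelial markers PECAM1, VWF and CDH5 were at 0 in all 6 libraries. The 0 of CD68 says little, since 82.6% of its last 500 exonic bases are shared with another gene. The summed level of the 5 leukocyte markers was 0 in untreated libraries and between 0 and 0.288 CPM in treated ones, from single CD14 counts. Of the fibroblast markers, DCN and LUM were at 0, and COL1A1 made the sum 44.3 to 62.9 CPM in untreated and 24.4 to 46.3 CPM in treated libraries.

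Every one of the 10 genes had a higher level in each treated library than in any untreated library. Of all 19158 genes with at least 1 count, 9.57% showed this. Only 6 of the 10, IFITM3, BST2, SAMHD1, RSAD2, MX2 and XAF1, passed the filter on low counts, and each of these 6 was called higher by edgeR's quasi-likelihood test at an adjusted p under 0.05. The filter asked for 2.59 CPM before TMM scaling in 3 libraries. MX2, XAF1 and RSAD2 reached this in no untreated library and passed through the treated group alone, so that they could be tested only if high there. IFITM3, BST2 and SAMHD1 did not depend on it in this way. Of the 10067 genes tested, 5.58% were called higher and 2.55% lower. Among them, 150 had likewise passed without any untreated library at that level, and 128 of these 150 were called higher. Of the other 9917 genes tested, 434 were called higher. The other 4, MX1, IFI6, IFITM1 and IFITM2, had at most 16 counts in any library and were not tested. Summed over the 10 genes, levels ran from 386.0 to 453.6 CPM in untreated and from 3044 to 4805 CPM in treated libraries. IFITM3 and BST2 together held between 94.1% and 98.5% of those counts in every library.

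**Figure D1:**
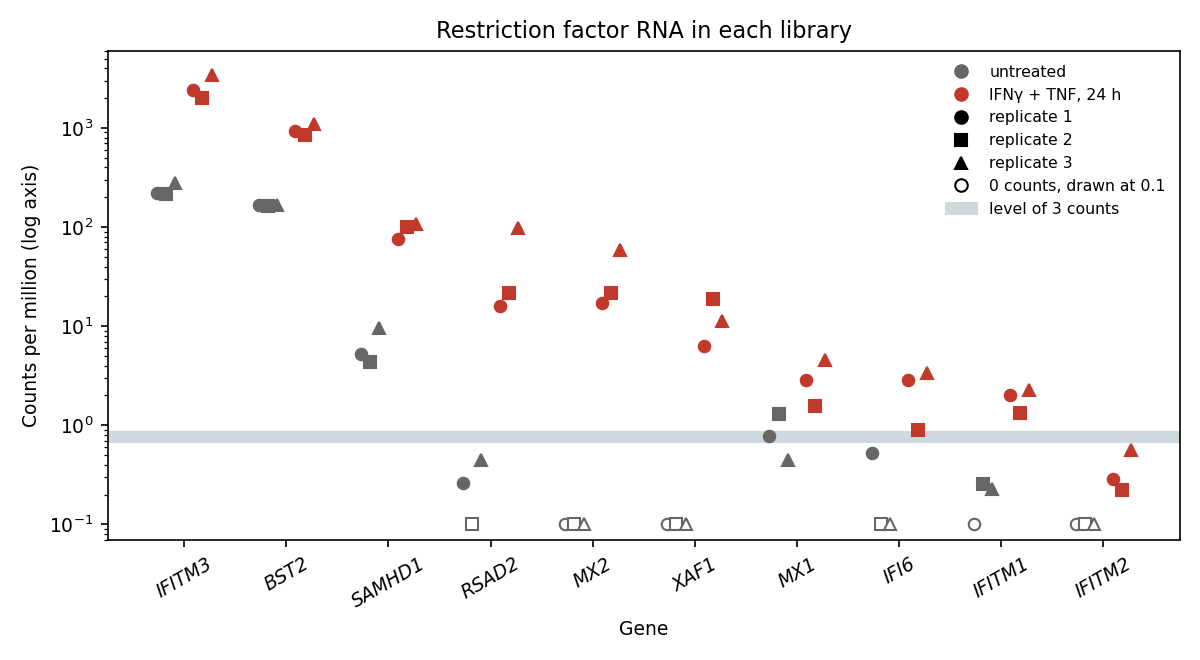
Level of each restriction factor gene in CPM (logarithmic vertical axis) in the 3 untreated (grey) and 3 cytokine-treated (red) libraries, with genes ordered by treated mean and marker shape giving the replicate. Open markers are libraries with 0 counts, and the grey band marks the level of 3 counts (0.674 to 0.863 CPM); every red marker lies above every grey one of the same gene, but IFITM2 stays under the band in all libraries.

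The IFITM proteins sit in endosomal and plasma membranes and hinder the fusion of enveloped viruses. IFITM3 (ENSG00000142089; GRCh38 chromosome 11, 319676 to 329475, minus strand) had 222.4, 216.7 and 277.0 CPM in untreated replicates 1, 2 and 3. Its treated levels, in the same order, were 2395, 2022 and 3420 CPM. The groups were far apart, and replicate 3 was the highest within each. The mean went from 238.7 ± 33.3 to 2613 ± 723.9 CPM (SD, n = 3 each), which edgeR fitted as a rise of 3.45 on the log2 scale (SE 0.24, adjusted p 3.62e-05). No exon base of IFITM3 is shared with another gene on its strand, but its coding sequence is closely related to that of IFITM2, so reads could be placed on the wrong paralog.

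IFITM1 (ENSG00000185885; chromosome 11, 310041 to 315272, plus strand) had 0, 1 and 1 counts in untreated replicates 1, 2 and 3, and 7, 6 and 8 in the treated ones. Pooled over libraries, the treated-to-untreated ratio was 11.1, with an exact 95% interval from 2.72 to 98.0 that covers counting error alone. IFITM2 (ENSG00000185201; chromosome 11, 303655 to 309397, plus strand) had 0 counts in all untreated libraries and 1, 1 and 2 in the treated ones. Both groups were at or under the limit of 3 counts, so no fold is given for IFITM2.

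The low counts of IFITM1 and IFITM2 coincide with a feature of the annotation. The Ensembl annotation lists a further gene on the same strand, ENSG00000288681 (chromosome 11, 308408 to 315272), with 2 exons. The second of them is 351 bases long (314922 to 315272) and coincides with exonic bases of IFITM1 that run to its 3′ end. The first is 31 bases long (308408 to 308438) and lies inside IFITM2, 959 bases from the 3′ end of that gene. ENSG00000288681 itself had 0 counts in all 6 libraries. By its defaults the counting program assigns no gene to a read overlapping exons of several genes, and the part of such reads in these low counts was not tested.

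IFI6 encodes a small membrane protein that acts against flaviviruses at the endoplasmic reticulum. The gene (ENSG00000126709; chromosome 1, 27666064 to 27672212, minus strand) showed the same feature. Its last 216 bases at the 3′ end (27666064 to 27666279) are also exon of LINC02574, which held 1 count in treated replicate 1 and 0 elsewhere. The untreated IFI6 counts were 2, 0 and 0 and the treated ones 10, 4 and 12, each for replicates 1, 2 and 3. The pooled ratio was 13.8 (exact 95% interval 3.45 to 119.9), and 8.77 without untreated replicate 3. Without untreated replicate 1, which held both untreated counts, IFI6 was at least 3.30-fold higher against 3 counts per library.

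**Figure D2:**
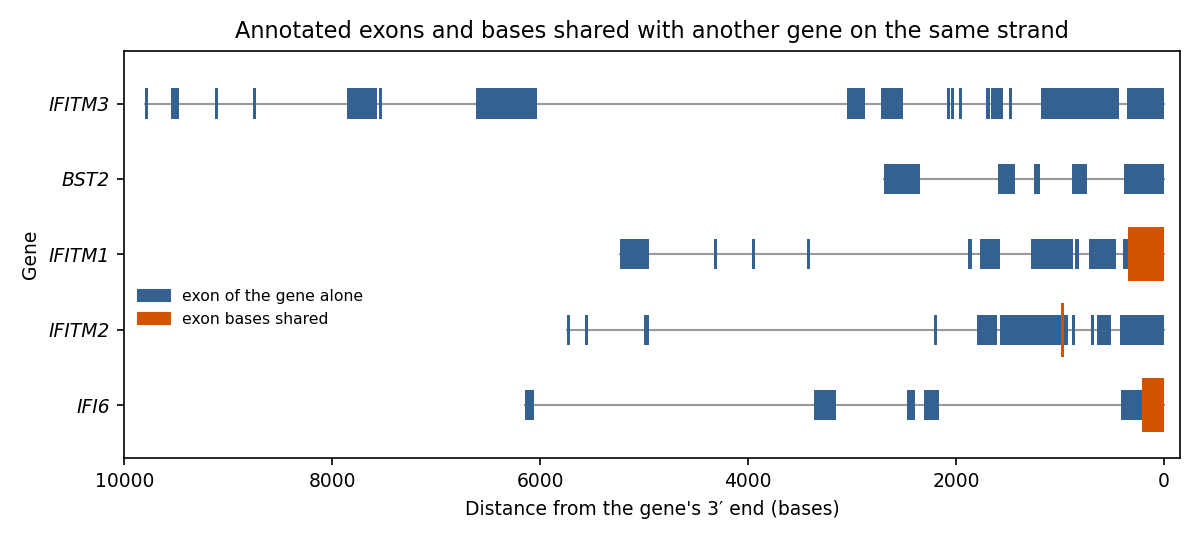
Merged annotated exons (blue) of IFITM3, BST2, IFITM1, IFITM2 and IFI6 by distance in bases from each gene's 3′ end, with the reading start of direct RNA sequencing at the right. Orange marks exon bases that another gene on the same strand also covers: 351 bases at the end of IFITM1, 31 bases within IFITM2, 216 bases at the end of IFI6 and none in IFITM3 or BST2.

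In a fit without the filter, over all genes having a count, all 10 genes entered the fit and 8 were called higher, against 4.43% of the 19158 genes. In that fit IFI6 had a log2 fold change of 3.62 (edgeR adjusted p 0.00134) and IFITM1 one of 3.30 (0.00868). IFITM2 had an edgeR adjusted p of 0.384 and MX1 one of 0.065, so neither passed the threshold. Adjusted p-values in that fit were far smaller than in the main fit for members tested in both. The edgeR value was 1.04e-24 against 2.93e-05 for BST2 and 6.11e-43 against 0.00187 for MX2. Values from the 2 fits are therefore not comparable, and the cause of the difference was not tested. IFI6 entered 4 of the 6 fits that left out 1 library and was called higher in 1 of them, without untreated replicate 1 (edgeR adjusted p 0.031). In the others its adjusted p was 0.054 without treated replicate 2, 0.216 without untreated replicate 2 and 0.0873 without untreated replicate 3.

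Whether IFITM1 and IFITM3 differed in their response was not settled at these counts, which for IFITM1 also carry the shared-exon limit. The log2 ratio of IFITM1 to IFITM3 within a library, with 0.5 added to each CPM, differed by -1.57 between treated and untreated libraries (exact permutation p 0.1, the smallest that 3 against 3 libraries allow). With 0.1 added it differed by -0.33 (exact permutation p 0.6), and without any pseudocount the fold of means was 11.7 for IFITM1 and 10.9 for IFITM3. The size of the difference thus depended on the pseudocount, and the fold of means had the opposite order. No such ratio is given for IFITM2, whose untreated counts were all 0.

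MX1 and MX2 lie next to each other on chromosome 21 and encode GTPases that form rings around viral nucleoprotein or capsid. MX1 acts against influenza and related viruses, and MX2 against HIV-1. MX2 (ENSG00000183486; chromosome 21, 41361999 to 41409393, plus strand) had 0 counts in all 3 untreated libraries. Its treated libraries held 59, 97 and 205 counts, or 17.0, 21.8 and 58.2 CPM in replicates 1, 2 and 3. Replicate 3 stood well above the other treated libraries. Set against 3 counts per library, MX2 was at least 43.4-fold higher in treated cells, and at least 26.0-fold higher without treated replicate 3 (edgeR adjusted p 0.00187 with all libraries).

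MX1 (ENSG00000157601; chromosome 21, 41420020 to 41470071, plus strand) had 3, 5 and 2 counts in untreated replicates 1, 2 and 3 and 10, 7 and 16 in treated ones. In CPM this was 0.782, 1.29 and 0.452 against 2.88, 1.57 and 4.54, so the groups did not overlap but the gap was narrow. The pooled ratio was 3.50 (exact 95% interval 1.68 to 7.96), and 2.60 without treated replicate 3. No exon base of MX1 or of MX2 is shared with another gene on the same strand. In treated libraries the log2 ratio of MX2 to MX1, with 0.5 added to each CPM, was 2.37, 3.43 and 3.54 in replicates 1, 2 and 3, so MX2 was the higher of the pair in each. In untreated libraries MX2 was at 0, so that the ratio there would be set by the pseudocount, and no change in it is given.

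RSAD2 encodes viperin, a radical SAM enzyme that makes a chain-terminating ribonucleotide. The gene (ENSG00000134321; chromosome 2, 6865557 to 6898239, plus strand) had 1, 0 and 2 counts in untreated replicates 1, 2 and 3 and 56, 97 and 345 in treated ones. Treated levels were 16.1, 21.8 and 98.0 CPM, so replicate 3 held most of the treated signal. The pooled ratio was 176.1 (exact 95% interval 59.9 to 856.6), with an edgeR adjusted p of 0.00255. Without treated replicate 3 the ratio was 78.1 and the fitted log2 fold change moved from 7.34 to 6.11. Without untreated replicate 3 the ratio was 335.8 and the fitted value 8.13.

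CMPK2, which supplies the nucleotide that viperin uses, starts next to RSAD2 on the opposite strand. It had 1, 3 and 2 untreated and 228, 347 and 415 treated counts, fitted by edgeR as 7.37 on the log2 scale (SE 0.42, adjusted p 1.04e-05). Among the treated libraries the highest level was 1.80 times the lowest for CMPK2 and 6.08 times the lowest for RSAD2. A test of that difference was not made.

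BST2 encodes tetherin, which holds budding virions at the cell surface. It varied least among treated libraries of the 6 tested members. Untreated replicates 1, 2 and 3 had 166.6, 163.4 and 166.0 CPM, and treated ones 936.5, 855.7 and 1099 CPM. The groups lay far apart with little spread in either. BST2 (ENSG00000130303; chromosome 19, 17402939 to 17405630, minus strand) rose from 165.3 ± 1.68 to 963.7 ± 123.9 CPM (mean ± SD of 3 libraries), and edgeR put this at 2.54 on the log2 scale (SE 0.17, adjusted p 2.93e-05). BISPR, a long non-coding RNA that starts next to BST2 on the other strand, had 1, 5 and 7 untreated and 24, 25 and 17 treated counts. In edgeR its log2 fold change was 2.41 (SE 0.52, adjusted p 0.0216), but it did not pass without treated replicate 1 (0.0768), 2 (0.0646) or 3 (0.0663), or without untreated replicate 2 (0.0825).

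SAMHD1 encodes a dNTP triphosphohydrolase that starves reverse transcription of its substrates. Its untreated replicates 1, 2 and 3 had 5.21, 4.38 and 9.50 CPM, with replicate 3 the highest. Treated replicates had 75.7, 99.7 and 107.1 CPM, well clear of the untreated ones. SAMHD1 (ENSG00000101347; chromosome 20, 36890229 to 36951893, minus strand) rose from 6.36 ± 2.75 to 94.1 ± 16.4 CPM (mean ± SD of 3 libraries), or 3.87 on the log2 scale in edgeR (SE 0.32, adjusted p 8.73e-05). Phosphorylation by CDK1 or CDK2 with cyclin A switches off its antiviral action. In edgeR, CDK1 differed by 0.45 (adjusted p 0.735), CDK2 by 0.19 (0.782) and CCNA2, which encodes cyclin A, by 0.27 (0.551) on the log2 scale, and none passed the threshold. Without treated replicate 2 the CDK1 value was -0.40 (edgeR adjusted p 0.659).

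XAF1 encodes a zinc finger protein that binds the caspase inhibitor XIAP and promotes cell death, and it also acts in antiviral responses. XAF1 (ENSG00000132530; chromosome 17, 6755447 to 6775647, plus strand) had 0 counts in every untreated library. Treated replicates 1, 2 and 3 held 22, 83 and 40 counts, or 6.33, 18.6 and 11.4 CPM. XAF1 was thus highest in treated replicate 2, unlike the other tested members. It was at least 16.3-fold higher in treated cells (edgeR adjusted p 0.00220), and at least 11.9-fold without treated replicate 2. XIAP itself had 10, 5 and 28 untreated and 8, 14 and 7 treated counts and did not pass the filter.

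**Figure D3:**
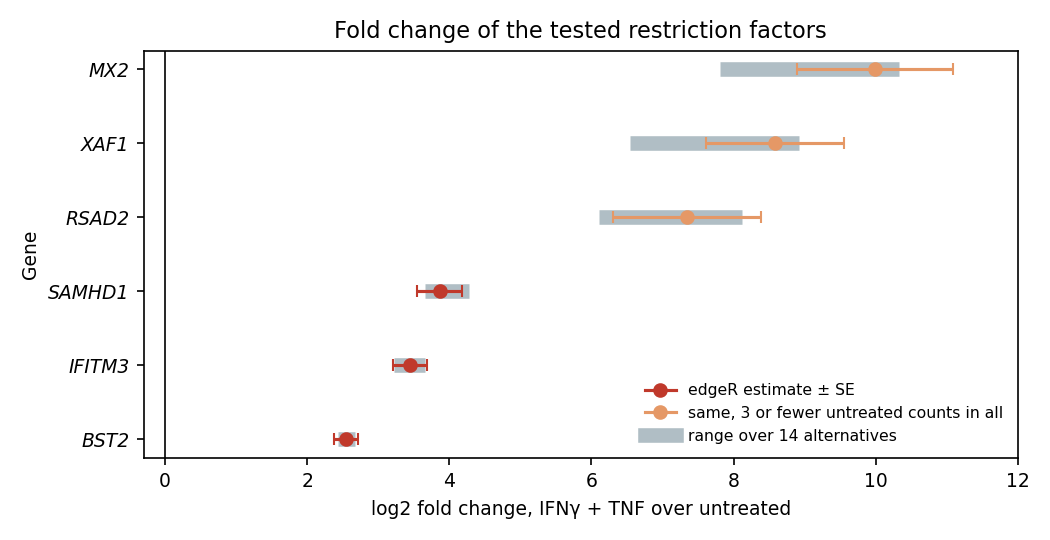
Fitted log2 fold change of treated over untreated cells (horizontal axis) for the 6 tested restriction factor genes, as points with SE, with grey bars giving the range over 14 alternative fits. Values for MX2, XAF1 and RSAD2 (orange), from 7.34 to 9.99, rest on 3 or fewer untreated counts in all and depend on the prior count; those of BST2, IFITM3 and SAMHD1 lie between 2.54 and 3.87.

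Treated replicate 3 had the highest level of 5 of the 6 tested members, and treated replicate 2 that of XAF1. The share of all tested genes highest in treated replicate 3 was not counted, so this is not read as a trait of the members. Relative to the mean of the treated libraries, replicate 3 was at 2.16 for RSAD2, 1.80 for MX2, 1.31 for IFITM3, 1.14 for BST2 and 1.14 for SAMHD1. Interferon-induced genes outside the set differed in the same library: IFI27, a relative of IFI6, was at 1.82 and ISG15, a ubiquitin-like modifier, at 1.53. IRF1 was at 0.924 there. The coefficient of variation among treated libraries was 101% for RSAD2, 69.8% for MX2 and 51.1% for XAF1. For IFITM3, SAMHD1 and BST2 it was 27.7%, 17.4% and 12.9%.

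**Figure D4:**
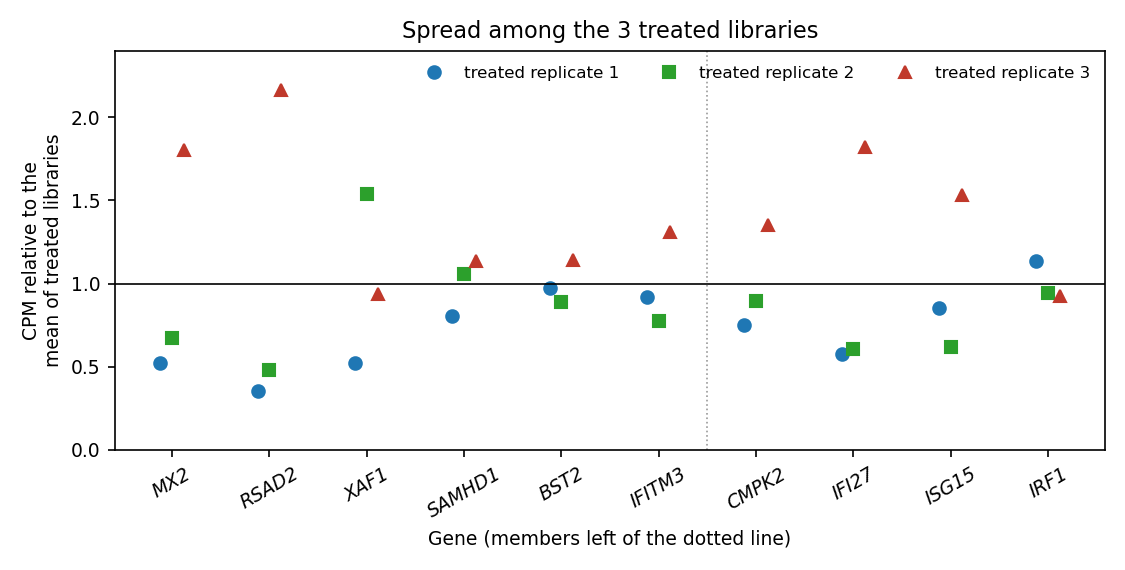
CPM of each gene in the 3 treated libraries divided by their mean (vertical axis), for the 6 tested restriction factor genes (left of the dotted line) and 4 interferon-linked genes. Replicate 3 (red triangles) reaches 2.16 for RSAD2, 1.80 for MX2 and 1.82 for IFI27, but lies at 0.924 for IRF1.

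Per kilobase of merged exons, mean treated levels were highest for IFITM3 (918.7 CPM per kb) and BST2 (875.3 CPM per kb), whose libraries overlapped. In untreated cells BST2 had 150.2 and IFITM3 83.9 CPM per kb, and on this scale every BST2 library lay above every IFITM3 library. Without division by length the order was the reverse. IFITM3 had 222.4, 216.7 and 277.0 CPM and BST2 166.6, 163.4 and 166.0 CPM in untreated replicates 1, 2 and 3. SAMHD1 followed in treated cells with 8.69 CPM per kb, and the RSAD2 libraries, between 2.85 and 17.3 CPM per kb, overlapped with it. IFI6 had 2.56, MX2 2.22, XAF1 1.83, IFITM1 1.13, IFITM2 0.224 and MX1 0.167 CPM per kb, and of these neighbours in the order only IFITM1 and IFITM2 did not overlap. Since merged exons cover all annotated isoforms and direct RNA reads stem from single molecules, this scale sets long, isoform-rich genes such as MX1 and MX2 low.

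Other genes known to restrict viruses were counted over a list of 36, of which 31 were tested. Of these, 22 were called higher and 0 lower by edgeR, against the 5.58% and 2.55% of all tested genes. DESeq2 called 23 higher and limma voom 22, neither called any lower, and at an unadjusted p under 0.05 each of the 3 tools had 0 lower. Of the 22, GBP2, GBP5, ISG20 and TRIM22 had passed the filter through the treated group alone, and 18 of the other 27 tested were called higher. Among all genes tested, 434 of the 9917 that had not passed that way were called higher. Over the 31 genes the median was 1.72 on the log2 scale. Among genes acting on nucleic acids, ISG20, an exonuclease, had 0, 2 and 8 untreated and 959, 975 and 1750 treated counts, a pooled ratio of 390.7 (exact 95% interval 212.2 to 815.5). Untreated replicate 3 held 8 of its 10 untreated counts, and without that library the ratio was 1242 (exact 95% interval 343.6 to 10261). HELZ2, a helicase co-activator, rose from 9.57 ± 1.70 to 218.9 ± 29.7 CPM (mean ± SD of 3 libraries), or 4.51 on the log2 scale (edgeR adjusted p 6.44e-06). SHFL, which blocks viral translation, and ZC3HAV1, which binds CpG-rich viral RNA, had log2 fold changes of 2.99 and 1.72. The RNA editor gene ADAR had one of 1.45 and the helicase gene MOV10 one of 1.06.

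Among cytidine deaminases of the list, APOBEC3G rose by 2.45 on the log2 scale (edgeR adjusted p 0.000305), between means of 17.0 ± 4.37 and 93.2 ± 14.2 CPM (SD of 3 libraries). APOBEC3F had a log2 fold change of 1.36, but its edgeR adjusted p of 0.0168 became 0.0622 without treated replicate 1, 0.0835 without treated replicate 3 and 0.0789 without untreated replicate 2. APOBEC3C had 20.6, 22.4 and 27.4 CPM in untreated and 39.7, 34.6 and 26.1 CPM in treated libraries, which overlapped (edgeR adjusted p 0.274). TRIM22, a ubiquitin ligase, had 2, 5 and 9 untreated and 171, 393 and 457 treated counts, a log2 fold change of 6.05. Exons of OR56B1 on the same strand cover 100% of the last 500 exonic bases of TRIM22. TRIM5, whose product attacks retroviral capsids, had a log2 fold change of 0.43 (edgeR adjusted p 0.704).

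GBP5, a GTPase that lowers the infectivity of virions, had 0 untreated counts and was at least 107.9-fold higher. PLSCR1, a membrane-associated factor, rose from 22.7 ± 4.80 to 242.4 ± 59.6 CPM, and PML, of nuclear bodies, from 91.5 ± 21.7 to 575.9 ± 112.8 CPM (means ± SD of 3 libraries). SERINC3, SERINC5 and MARCHF8, which alter or remove envelope proteins, differed by -0.07, -0.75 and -0.29 on the log2 scale and did not pass the threshold (edgeR adjusted p 0.937, 0.485 and 0.802). CH25H, an oxysterol enzyme gene, was at 0 in all 6 libraries. IFI16, a DNA sensor, had 8, 17 and 101 untreated and 82, 342 and 209 treated counts, and its edgeR adjusted p of 0.0879 became 0.000333 without untreated replicate 3. HERC5, the ISG15 ligase, went from 0.369 to 0.0124 in edgeR's adjusted p without that library, which held all 14 of its untreated counts.

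**Figure D5:**
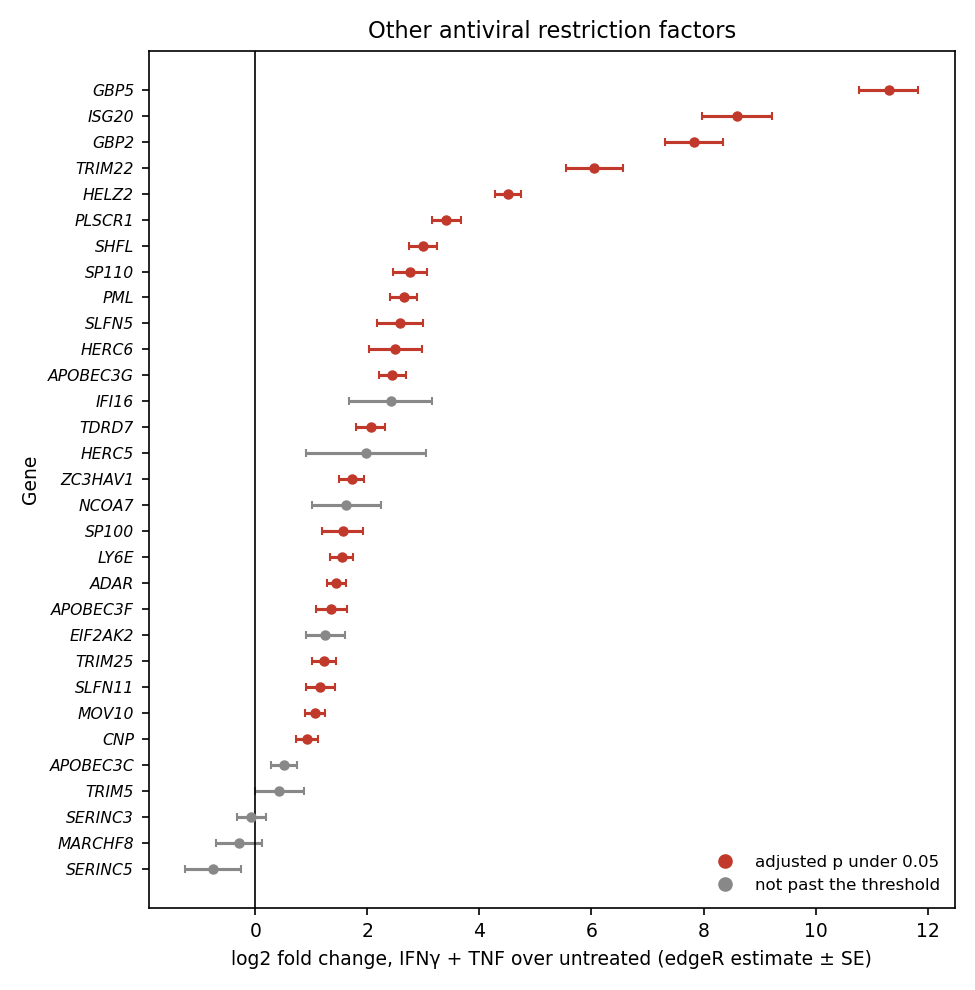
Fitted log2 fold change with SE for the 31 tested genes of a list of 36 other antiviral restriction factors, with red for an edgeR adjusted p under 0.05 and grey otherwise. Values run from -0.75 for SERINC5 to 11.3 for GBP5, and 22 genes are red, all to the right of 0.

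In the interferon signalling list, 11 of 13 genes were tested, 6 were called higher (against 5.58% of all tested genes) and 0 lower (against 2.55%) by edgeR, as by DESeq2 and limma voom (0 lower at an unadjusted p under 0.05), with a median log2 fold change of 1.96. IFNAR2 and USP18 had passed the filter through the treated group alone, and 4 of the other 9 tested were called higher, against 434 of 9917 such genes. None of the receptor and kinase genes IFNGR1, IFNGR2, IFNAR1, JAK1 and TYK2 passed the threshold, with log2 fold changes from -0.19 to 0.76. IFNAR2 had a value of 1.96, whose edgeR adjusted p of 0.0160 became 0.0643 and 0.0611 without treated replicates 2 and 3 and 0.0952 without untreated replicate 2, and 41.5% of its exonic bases are shared with IFNAR2-IL10RB. STAT2 had 13.3, 12.1 and 39.6 CPM in untreated and 144.7, 100.2 and 153.6 CPM in treated libraries, a log2 fold change of 2.60 that became 3.38 without untreated replicate 3. Untreated replicate 3 held the highest untreated level of STAT2, as it did for SAMHD1. IRF1 averaged 33.8 ± 5.93 CPM before and 1325 ± 155.9 CPM after treatment (SD of 3 libraries), and the feedback genes SOCS1 and USP18 had log2 fold changes of 5.15 and 5.45. IRF9 was at 0 in all libraries, with 77.4% of its last 500 exonic bases shared with another gene.

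Relatives and partners were looked at by role. IFI27 had 0, 1 and 0 untreated and 351, 473 and 1126 treated counts, a pooled ratio of 2068 whose exact 95% interval, 370.8 to 81731, is wide because it rests on 1 untreated count. Without untreated replicate 2, which held that count, IFI27 was at least 240.6-fold higher, and the ratio was 1315 without untreated replicate 3 and 1262 without treated replicate 3. Its neighbours IFI27L1 and IFI27L2 differed by 0.35 and 0.44 on the log2 scale (edgeR adjusted p 0.569 and 0.336). IFITM5 was at 0 throughout, and IFITM10 had 1 count in treated replicates 1 and 3. ZMPSTE24, a protease that works with IFITM proteins, and VAPA, which IFITM3 binds, differed by 0.10 and 0.04 on the log2 scale (edgeR adjusted p 0.922 and 0.966).

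Genes within 100 kb of a member numbered 84, of which 23 were tested. Of these, CMPK2 and BISPR were called higher by edgeR, or 8.70% of those tested against 5.58% of all genes, and 0 lower (2 lower at an unadjusted p under 0.05). Both had passed the filter through the treated group alone, and of the other 21 tested 0 were called (by edgeR at the adjusted threshold). Over all genes tested, 434 of the 9917 that had not passed that way were called higher. BACE2, which lies beside MX2, had a log2 fold change of 0.22, and the genes near the IFITM cluster ranged from -0.83 for PKP3 to 0.71 for PGGHG, with none called.

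The genes whose levels over the 6 libraries lay closest to the mean profile of the 6 tested members were SOD2, LGALS9, LAP3, KLF4 and BANCR. Closeness was the Euclidean distance between log2 CPM values centred on each gene's mean, and it ran from 0.36 for SOD2 to 0.66 for BANCR, against a median of 5.36 over all other genes. SOD2, which encodes mitochondrial superoxide dismutase, had 290, 281 and 514 untreated and 4584, 7299 and 10444 treated counts. LGALS9, a galectin gene, had 0 untreated and 23, 29 and 47 treated counts. In all 5 genes the treated libraries lay above the untreated ones, which the choice by distance brings about.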

How the data were processed

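Counts per gene were deposited by the authors for 6 direct RNA libraries, made with featureCounts 2.0.1 in long-read, strand-specific mode on Ensembl exons (GRCh38), per the file headers. The submitters' processing notes list minimap2 2.24, SAMtools 1.16 and featureCounts 2.0.0. Neither multi-mapping nor multi-overlap counting was set in the headers, and the headers' alignment names carry the word dmso, while the labels name no vehicle. Groups and replicates come from the sample titles.

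Symbols came from a name table that held 61369 of 61541 identifiers. Differences were tested with edgeR 4.0.16 (R 4.3.3): quasi-likelihood F test, TMM, filterByExpr, group as the sole term, Benjamini-Hochberg adjustment over all tested genes, threshold 0.05. SE is the absolute log2 fold change over the square root of F. CPM uses library totals times TMM factors. Folds against 0 counts are bounds against 3 counts per library, and pooled ratios carry exact (Clopper-Pearson) 95% intervals for counting error. On simulated counts for 10067 genes with known changes, edgeR recovered 75 of 100 genes changed by 2 and 20 of 100 changed by 1 on the log2 scale, with 8 false calls. Simulated levels started from means over all 6 libraries, without structure among replicates. The recovered shares therefore do not describe genes such as MX2, XAF1 and RSAD2, with larger fitted changes from few untreated counts. Alternatives used DESeq2 1.42.0 and limma 3.58.1 voom, other scalings and filters, a replicate block and leaving out each library.

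The members and lists were chosen with earlier results of these data known, and 1 signalling gene and 1 leukocyte marker are not reported here. All members were named, list genes by role, and 5 genes by likeness of profile; neighbours within 100 kb were added after the data were examined. The labels call the replicates biological, without naming separate passages, so p-values measure the spread between these cultures.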

Additional observations from a re-analysis of the deposited data

How the results depend on the processing

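The 6 tested members were called higher in all 14 alternative fits, with adjusted p up to 0.0195 (RSAD2 in limma voom). Their log2 fold changes ranged from 2.43 to 2.67 for BST2, 3.22 to 3.66 for IFITM3, 3.66 to 4.28 for SAMHD1, 6.11 to 8.13 for RSAD2, 6.54 to 8.93 for XAF1 and 7.81 to 10.3 for MX2. MX2, XAF1 and RSAD2 had passed the main filter through the treated group alone, as had 150 genes, of which 128 were called higher. Repeated calls of these 3 were thus favoured by the filter. Over all genes, those called higher ran from 358 of 10443 (without untreated replicate 2) to 907 of 10067 (replicate block). Without treated replicate 1 or 3, 6 of 6 tested members were called. Without treated replicate 2, or untreated replicate 2 or 3, 6 of 8 were called, and 7 of 8 without untreated replicate 1. MX1 entered 4 of these fits and passed in 0, with edgeR adjusted p from 0.0961 to 0.226. Genes called over the whole table, 819, became 1328 with every gene of at least 1 count, 1513 with the replicate block, and 455 to 1178 without 1 library, lowest without treated replicate 3 (455) and untreated replicate 2 (465). Scaling to library totals alone moved the median of all genes to -0.13 and the split from 562 higher and 257 lower to 485 and 364, and left the 6 members higher. Same-numbered replicates deviated together with correlations of 0.65, 0.00 and 0.37 for replicates 1, 2 and 3. These 3 values do not settle whether same-numbered cultures are paired. The main fit leaves the numbers out, and the replicate block is an alternative. That block kept 6 members called, 26 other restriction factors and 6 signalling genes. In those lists, calls lost without 1 library, beside those given above, were TRIM25, HERC6, SLFN11, SP100 and CNP, while EIF2AK2 passed in some fits. Other restriction factors called numbered 17 to 26 and signalling genes 5 to 7 without 1 library. The change in the ratio of IFITM1 to IFITM3 ran from -1.72 to -1.40 without 1 library and was -0.33 with a pseudocount of 0.1. The cause of these shifts was not tested. MX1, IFI6, IFITM1 and IFITM2 had at most 16 counts in any library, which limits the precision of their ratios.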

Other observations

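Of the 11 tested interferon signalling genes, untreated replicate 3 had the highest untreated level in 5 and the lowest in 6. Over all 10067 tested genes the shares were 45.2% and 41.3%.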
